A study of Mus musculus with 18 samples.

Results

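Receptor tyrosine kinases and the growth factors that bind them were followed as a group of 53 genes, 25 receptors and 28 ligands in 12 families, out of the 35275 genes in the count table. The members were a fixed list of gene symbols, and each receptor was set beside its own ligands. No expression cutoff was used to pick them, but the list was chosen with earlier results of these data known. RNA-seq was run on untreated cell lines from mouse malignant peripheral nerve sheath tumors (MPNSTs), each line grown from a separate tumor and passaged many times before use. Tumors were raised in wild-type 129 Sv/Jae mice by injecting the sciatic nerve with an adenovirus that carried Cas9, driven by the broadly active CMV promoter, and guide RNAs. *Nf1* was a target in all lines, so every line is labeled *Nf1*-/-. The guides also targeted p53 (*Trp53* in the mouse) in 3 lines, here the *Nf1*/*p53* dKO (double knockout), and *Cdkn2a* in 3 lines, here the *Nf1*/*Cdkn2a* dKO. Each line was sequenced in 3 cultures, giving 18 libraries. Since cultures of 1 line come from the same tumor, their counts were summed and the comparison was made over 6 lines, 3 per genotype. No line without these deletions is among them, so each difference is one between the genotypes and not from normal nerve.

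A receptor tyrosine kinase spans the cell membrane, binds a growth factor outside the cell and, once paired with another receptor, phosphorylates itself and recruits adaptors that switch on RAS and phosphoinositide 3-kinase. *Nf1* encodes neurofibromin, which turns RAS off, so loss of *Nf1* prolongs signals that these receptors start. Schwann cells and fibroblasts of peripheral nerve make and answer several of these factors, among them neuregulins, PDGFs and GDNF.

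Libraries held 19560535 to 28312207 counts (median 23149777), and the summed lines 65206479 to 73065228. The *Nf1* mRNA was at 27.7 to 70.0 CPM (counts scaled to library size) in *Nf1*/*p53* dKO lines and at 12.7 to 38.3 CPM in *Nf1*/*Cdkn2a* dKO lines. *Trp53* mRNA was at 58.7 to 94.1 CPM in the former and 185 to 247 CPM in the latter, while *Cdkn2a* was at 42.9 to 363 and 169 to 392 CPM. *Cdkn2a* mRNA was thus present in the lines labeled for its deletion. A small edit can leave an mRNA in place, so these levels do not check the deletions. The cell type label is mesenchymal, and 8 mesenchymal markers summed to 8928 to 23400 CPM in *Nf1*/*p53* dKO and 11990 to 18850 CPM in *Nf1*/*Cdkn2a* dKO lines. Schwann cell markers summed to 14.0 to 102 and 7.17 to 66.1 CPM, with the defining *Sox10* at most 0.0990 CPM in any line. The highest Schwann cell sums of the genotypes rested largely on *Ngfr* and *Gap43*, at 64.3 CPM in *Nf1*/*p53* dKO line 2 and 59.6 CPM in *Nf1*/*Cdkn2a* dKO line 3. Of 8 Schwann cell markers tested, 7 had lower fitted levels in *Nf1*/*Cdkn2a* dKO (median log2 fold change -3.26). In edgeR 0 were called, beside 1.80% of all genes, and 4 had an unadjusted p under 0.05, beside 22.4% of all genes. DESeq2 called 3 of 7, beside 11.8% of all genes. Leukocyte markers stayed at or under 7.54 CPM and endothelial markers at or under 2.02 CPM. Summed epithelial markers ranged from 2.67 to 739 CPM with no order by genotype. Those sums rested largely on *Krt8*, up to 601 CPM, and *Krt18*, up to 199 CPM. The other epithelial markers were scarce, with *Epcam* at most 0.764, *Krt5* 0.0963, *Krt14* 0.176 and *Cdh1* 1.26 CPM in any line. *Cdh1* was lower in *Nf1*/*Cdkn2a* dKO lines without overlap (edgeR adjusted p = 0.185). Skeletal muscle progenitor markers separated the genotypes, at 53.9 to 417 CPM against 0.203 to 0.802 CPM. Of the 4 tested, 2 were called in edgeR, *Myf5* and *Cdh15*, beside 1.80% of all genes. In that list of 7 genes *Myod1* reached 204 CPM in *Nf1*/*p53* dKO line 3, and *Pax7* and *Pax3* were at most 0.156 CPM in any line. The part of these marker genes in the results below was not tested. In bulk RNA, fewer cells of a type and less RNA per cell cannot be told apart.

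Of the 53 members, 46 had enough counts to be tested, and 5 of them differed between the genotypes at an adjusted p under 0.05 (edgeR's quasi-likelihood test, Benjamini-Hochberg adjustment over 15207 genes). These 5, or 10.9%, stand beside 1.80% of all genes tested. *Egfr*, *Fgfr2*, *Gdnf* and *Mdk* were lower in *Nf1*/*Cdkn2a* dKO lines, and *Fgf10* was higher. Both called receptors were lower, of 19 receptors tested, and of 27 ligands tested 2 were lower and 1 higher. Over all genes tested, 177 of the 274 called were lower and 97 higher. In 23 members, 50.0% of those tested, all 3 lines of one genotype lay above all 3 of the other, beside 31.4% of all genes tested. These were 12 members higher and 11 lower in *Nf1*/*Cdkn2a* dKO. On raw total counts, without scaling factors, the number was 17 (37.0%, 6 higher and 11 lower) beside 32.4% of all genes. *Hbegf*, *Pdgfa*, *Fgf1*, *Fgf7*, *Ddr2* and *Ror1* overlapped there. The median log2 fold change, always given as *Nf1*/*Cdkn2a* dKO minus *Nf1*/*p53* dKO, was -0.04 over the members and -0.02 over all genes tested. Dropping the scaling factors moved these medians to -0.18 and -0.16. DESeq2 on the same 6 lines called 15 of 49 members (30.6%) beside 11.8% of all genes it tested. The 10 further members were *Tgfa*, *Ereg*, *Pdgfd*, *Igf1r*, *Fgfr1*, *Fgfr3*, *Axl*, *Ret*, *Bdnf* and *Ptn*.

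**Figure D1:**
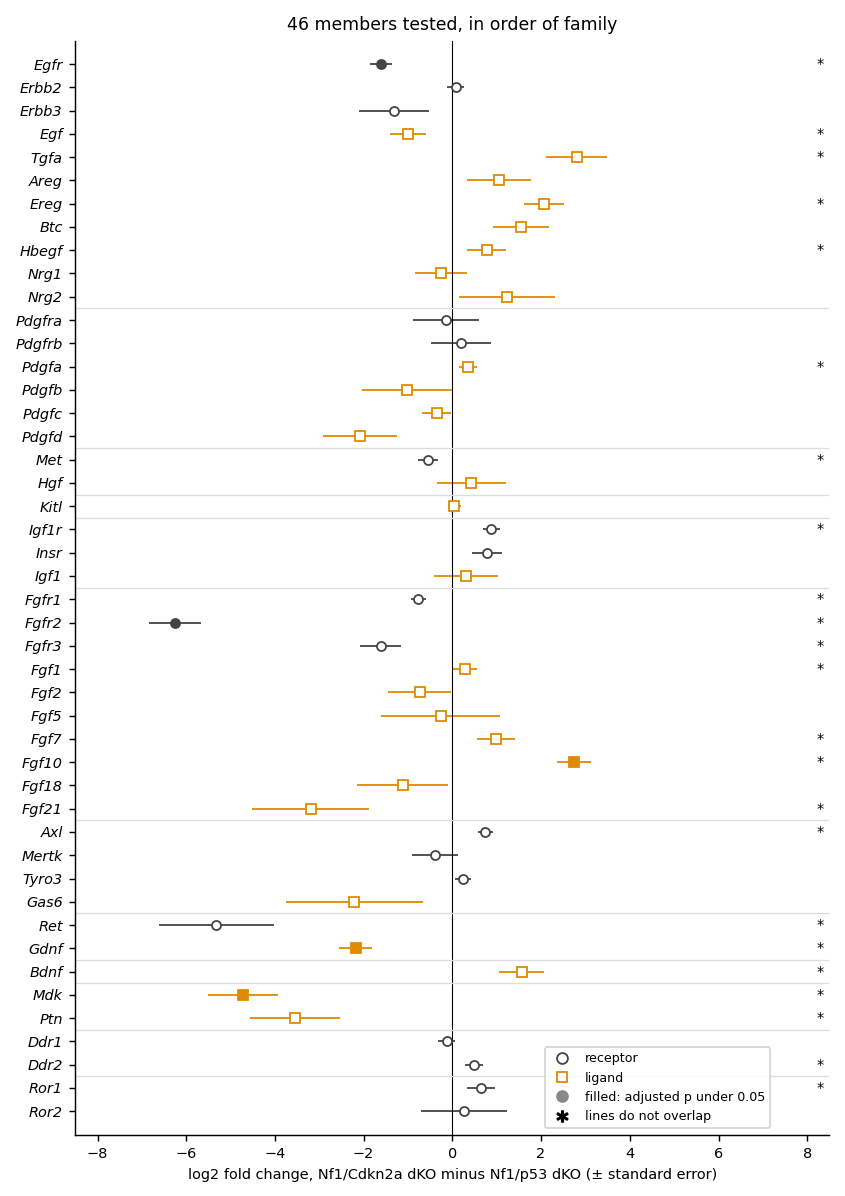
Log2 fold change of each of the 46 tested members (*Nf1*/*Cdkn2a* dKO minus *Nf1*/*p53* dKO, edgeR on 3 lines per genotype), in order of family; bars are standard errors, circles receptors, squares ligands, filled symbols an adjusted p under 0.05, and asterisks members whose lines do not overlap between genotypes. The filled symbols are *Egfr* at -1.61, *Fgfr2* at -6.25, *Gdnf* at -2.18 and *Mdk* at -4.73, to the left of 0, and *Fgf10* at 2.74, to the right.

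In the EGF receptor family, the receptor *Egfr* was 3.06-fold higher in *Nf1*/*p53* dKO lines. *Egfr* encodes the receptor for EGF, TGF-α, amphiregulin, epiregulin, betacellulin and HB-EGF, and lies at chr11:16752203-16918158 (GRCm38). Its level was 50.8, 75.9 and 42.4 CPM in *Nf1*/*p53* dKO lines 1, 2 and 3, and 17.5, 17.5 and 20.4 CPM in *Nf1*/*Cdkn2a* dKO lines 1, 2 and 3. The genotypes did not overlap, and the spread among *Nf1*/*Cdkn2a* dKO lines (18.4 ± 1.69 CPM, SD, n = 3) was narrow beside that of *Nf1*/*p53* dKO lines (56.4 ± 17.4 CPM, SD, n = 3). The log2 fold change was -1.61 with a standard error of 0.24 (edgeR adjusted p = 0.0407). Single cultures kept the same order, from 37.8 to 79.3 CPM against 14.9 to 21.1 CPM. With *Nf1*/*p53* dKO line 3 left out the call held (edgeR adjusted p = 0.0430), and with any other line left out it did not, at -1.32 to -1.68 on the log2 scale (edgeR adjusted p = 0.0673 to 0.143).

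The ligands of *Egfr* other than *Egf* had higher fitted levels in *Nf1*/*Cdkn2a* dKO lines, and none of them passed the test in edgeR, where *Ereg*, *Tgfa* and *Btc* had unadjusted p of 0.00281, 0.00562 and 0.0450. *Ereg*, which encodes epiregulin, was the most abundant ligand of the family per length of exon. With the longest coding transcript as the length, *Hbegf* was above it by mean in *Nf1*/*p53* dKO lines, at 34.8 against 24.2 CPM per kilobase. *Ereg* was at 125, 132 and 42.4 CPM in *Nf1*/*p53* dKO lines and at 466, 477 and 311 CPM in *Nf1*/*Cdkn2a* dKO lines. The lowest *Nf1*/*Cdkn2a* dKO line was above the highest *Nf1*/*p53* dKO line, with a log2 fold change of 2.07, a standard error of 0.45 and an adjusted p of 0.0681 in edgeR (DESeq2 adjusted p = 0.000287). *Tgfa*, encoding TGF-α, was scarce in every line, at 0.0644, 0.0566 and 0.221 CPM against 0.578, 1.23 and 0.610 CPM, and it too did not overlap (log2 fold change 2.80, standard error 0.69, adjusted p = 0.0883 in edgeR and 0.00303 in DESeq2). Counts of *Tgfa* were 4 to 16 per *Nf1*/*p53* dKO line and 36 to 85 per *Nf1*/*Cdkn2a* dKO line. For *Hbegf*, encoding HB-EGF, the levels were 111, 104 and 32.6 CPM against 121, 153 and 148 CPM. These did not overlap, with 111 and 121 CPM as the nearest lines, but they overlapped on raw total counts, and the log2 fold change of 0.77 had an edgeR adjusted p of 0.345. *Egf* itself, with 27 to 94 counts per line, lay the other way, at 0.838, 0.877 and 1.30 CPM against 0.433, 0.404 and 0.673 CPM (log2 fold change -1.0, edgeR adjusted p = 0.219). *Areg* and *Btc*, encoding amphiregulin and betacellulin, overlapped between genotypes, at 1.99 to 12.1 against 8.13 to 24.2 CPM and at 11.6 to 20.02 against 10.7 to 63.4 CPM. *Ereg*, *Areg* and *Btc* are neighbors on chromosome 5, between 91074622 and 91402994.

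The other EGF family receptors differed from *Egfr* in pattern or level. *Erbb2*, the co-receptor without a ligand of its own, was at 23.8, 28.8 and 34.9 CPM in *Nf1*/*p53* dKO and 28.4, 33.8 and 29.8 CPM in *Nf1*/*Cdkn2a* dKO lines. Its log2 fold change was 0.07 with a standard error of 0.19, a sign that turned to -0.06 on raw total counts. *Erbb3*, which binds neuregulins and needs *Erbb2* to signal, stayed at 0.173 to 1.73 CPM over the 6 lines (log2 fold change -1.32, edgeR adjusted p = 0.368). *Erbb4*, another neuregulin receptor, was not tested and had 24 counts in *Nf1*/*p53* dKO line 3, 1 count in line 2 and 0 in the other lines. The neuregulin gene *Nrg1* was at 3.58 to 13.6 CPM and *Nrg2* at 0.443 to 13.5 CPM, both with overlapping genotypes (log2 fold changes -0.26 and 1.24, edgeR adjusted p = 0.823 and 0.539). Without *Nf1*/*p53* dKO line 1 the value of *Nrg2* was 3.58 (edgeR adjusted p = 0.0706), and it was 0.71 to 1.41 without any other line. On CPM per kilobase of exon, *Erbb2* was the highest receptor of the family, at 5.60 ± 1.06 and 5.89 ± 0.54 (SD, n = 3 each), close to *Egfr* in *Nf1*/*p53* dKO lines at 4.98 ± 1.54. In *Nf1*/*Cdkn2a* dKO lines *Egfr* was at 1.63 ± 0.15 CPM per kilobase.

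**Figure D2:**
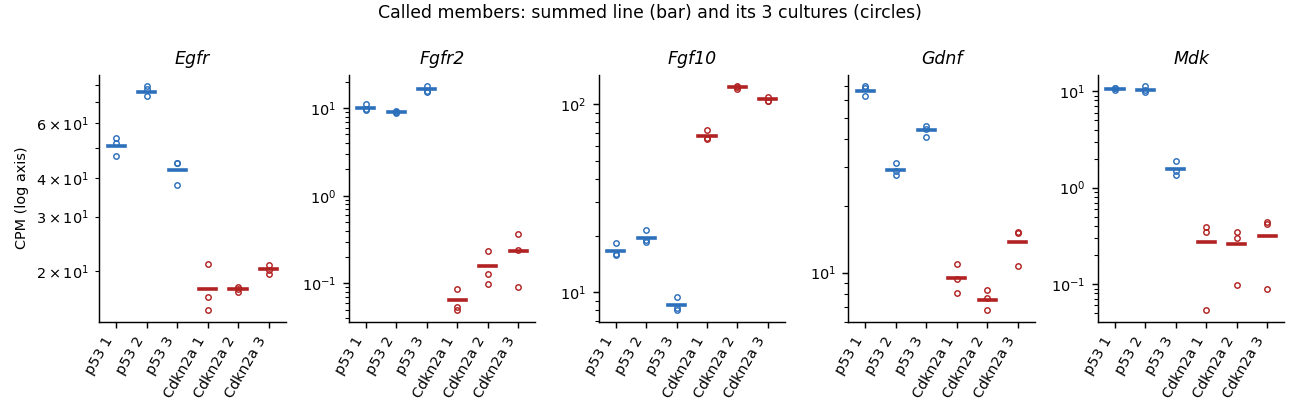
Level of the 5 called members in each line, in CPM on a log axis; a bar is the level of the 3 cultures of a line summed and circles are the cultures (blue, *Nf1*/*p53* dKO; red, *Nf1*/*Cdkn2a* dKO). The bars of the genotypes do not overlap in any panel, and *Mdk* in *Nf1*/*p53* dKO line 3, at 1.56 CPM, sits apart from lines 1 and 2 at 10.6 and 10.4 CPM.

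The FGF family held 2 called members, and they lay in opposite directions. *Fgfr2*, a receptor whose epithelial splice form is the main receptor of FGF10 and FGF7, was at 10.1, 8.94 and 16.3 CPM in *Nf1*/*p53* dKO lines. In *Nf1*/*Cdkn2a* dKO lines it was at 0.0642, 0.159 and 0.235 CPM, which rests on 4, 11 and 15 counts per line. The means differed 77.4-fold, with a log2 fold change of -6.25, a standard error of 0.59 and an edgeR adjusted p of 0.0189. The call held with each *Nf1*/*p53* dKO line left out in turn (edgeR adjusted p = 0.0380 to 0.0440), and with each *Nf1*/*Cdkn2a* dKO line left out the adjusted p was 0.0506 to 0.101. The annotated gene (chr7:130162451-133123350, minus strand) shares exon bases with *Ctbp2* on the same strand, so some reads could be split between them. Counts per gene do not separate the splice forms of the receptor.

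*Fgf10*, encoding a ligand that mesenchyme makes and epithelium answers, was at 16.6, 19.4 and 8.55 CPM in *Nf1*/*p53* dKO lines and at 68.2, 123 and 107 CPM in *Nf1*/*Cdkn2a* dKO lines. All *Nf1*/*Cdkn2a* dKO lines were above all *Nf1*/*p53* dKO lines, and the means differed 6.69-fold. The log2 fold change was 2.74 with a standard error of 0.38 (edgeR adjusted p = 0.0361). With *Nf1*/*p53* dKO line 3 left out it was 2.47 and still called (edgeR adjusted p = 0.0440), and without any other line the adjusted p was 0.0674 to 0.114. *Fgf10* (chr13:118669791-118792115, plus strand) overlaps exon bases of *Gm16263* on the opposite strand. Whether the counting used strand is not given in the sources used here. *Fgf7*, the related keratinocyte growth factor, was at 134, 156 and 61.6 CPM against 161, 185 and 346 CPM. Its lines did not overlap by a small margin, which raw total counts removed, and its log2 fold change of 0.97 had an edgeR adjusted p of 0.243.

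*Fgfr1* was the most abundant FGF receptor in every line. Its level was 482, 436 and 347 CPM in *Nf1*/*p53* dKO lines against 230, 269 and 243 CPM in *Nf1*/*Cdkn2a* dKO lines, with no overlap. The log2 fold change of -0.77 (standard error 0.17) had an adjusted p of 0.0699 in edgeR, 0.04997 on raw total counts, where it passed the threshold, and 0.0108 in DESeq2.

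Among the other FGF members, *Fgfr3* was scarce, at 1.21, 3.14 and 1.80 CPM against 0.770, 0.534 and 0.704 CPM. Its lines did not overlap, and the log2 fold change of -1.61 (standard error 0.46) had an edgeR adjusted p of 0.114 (DESeq2 adjusted p = 0.0122). *Fgfr4* was not tested, with 8, 12 and 48 counts in *Nf1*/*p53* dKO lines and 0, 1 and 4 counts in *Nf1*/*Cdkn2a* dKO lines. *Fgf1*, a ligand of all FGF receptors, was even across lines, at 2.80, 3.03 and 2.19 CPM against 3.08, 3.32 and 3.28 CPM. That separation of *Fgf1* was lost on raw total counts, and the log2 fold change of 0.27 had an edgeR adjusted p of 0.608. *Fgf21*, which encodes a circulating metabolic hormone, had 20 to 63 counts per *Nf1*/*p53* dKO line, and 0, 12 and 0 counts in *Nf1*/*Cdkn2a* dKO lines (0.516, 0.283 and 0.872 CPM against 0, 0.173 and 0 CPM). Its log2 fold change of -3.20 had a standard error of 1.32 and an edgeR adjusted p of 0.219. Without *Nf1*/*Cdkn2a* dKO line 2, which held all 12 counts of that genotype, the fitted value was -8.27, set by lines at 0 and no bound on the change. *Fgf2*, *Fgf5* and *Fgf18* overlapped between genotypes, at 0.620 to 3.64, 0.0692 to 6.97 and 0.0553 to 1.70 CPM over the 6 lines. *Fgf5* spanned 101-fold among *Nf1*/*p53* dKO lines alone.

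The stretches just upstream of the start sites of *Egfr* and *Fgf10* are shown because they head 1 called receptor and 1 called ligand of opposite direction, and because the bases after these RefSeq starts (GRCm38.p6) were found in GENCODE M21 transcripts of the same gene. Each is the 250 bases before the start, 5′ to 3′ on the plus strand, chr11:16751953-16752202 for *Egfr* and chr13:118714449-118714698 for *Fgf10*. The *Egfr* window ends where the annotated gene begins, at 16752203. The *Fgf10* window lies inside the annotated gene, which begins at 118669791, and 1 GENCODE transcript holds the bases after that start. Capitals mark the only motif found in them, the GC box (GGGCGG on either strand).
Egfr: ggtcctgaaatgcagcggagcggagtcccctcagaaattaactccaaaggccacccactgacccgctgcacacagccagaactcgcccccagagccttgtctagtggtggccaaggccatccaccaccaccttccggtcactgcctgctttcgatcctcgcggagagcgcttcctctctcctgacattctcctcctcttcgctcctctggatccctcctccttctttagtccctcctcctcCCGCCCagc
Fgf10: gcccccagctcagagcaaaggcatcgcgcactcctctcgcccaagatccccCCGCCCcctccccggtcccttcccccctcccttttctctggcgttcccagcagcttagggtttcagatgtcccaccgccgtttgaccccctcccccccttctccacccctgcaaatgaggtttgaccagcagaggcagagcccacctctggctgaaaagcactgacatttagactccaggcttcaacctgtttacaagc
Both windows hold 1 GC box, which occurs in 32.7% of all 32817 promoter windows of this length and in 32 of the 56 windows of members (57.1%). They are rich in G and C, at 60.8% and 61.2%. The other motifs searched, on both strands, were the TATA box (TATAAA, in 12.4% of all windows), the AP-1 site (TGANTCA, 6.75%), the cAMP response element (TGACGTCA, 1.55%) and the p53 response element (0.0640%), none of which contains another. No window of a member held the p53 response element as searched, which says only that these letters are not there. Windows were listed for 40 of the 53 members, and *Mdk* has none.

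RET, the receptor of GDNF, and its ligand lay in the same direction. *Gdnf*, which encodes glial cell line-derived neurotrophic factor, was at 66.6, 29.0 and 44.0 CPM in *Nf1*/*p53* dKO lines against 9.43, 7.54 and 13.8 CPM in *Nf1*/*Cdkn2a* dKO lines. The genotypes did not overlap, and the means, 46.5 ± 18.9 and 10.2 ± 3.19 CPM (SD, n = 3 each), differed 4.54-fold. *Gdnf* (chr15:7810846-7837575) had a log2 fold change of -2.18 with a standard error of 0.37 (edgeR adjusted p = 0.0479). Leaving out any line, of either genotype, ended the call, at -1.83 to -2.45 on the log2 scale (edgeR adjusted p = 0.0659 to 0.153). *Ret* was scarce in both genotypes, at 0.322, 3.11 and 3.49 CPM against 0, 0.0577 and 0.109 CPM, or 25, 220 and 252 counts against 0, 4 and 7. The lines did not overlap, and the fitted log2 fold change of -5.32 had a standard error of 1.30 and an adjusted p of 0.0864 in edgeR (1.7e-05 in DESeq2). GDNF binds RET together with the coreceptor GFRα1. *Gfra1* was at 90.0, 41.7 and 9.08 CPM against 14.5, 8.0 and 18.1 CPM, with overlapping genotypes (log2 fold change -1.80, edgeR adjusted p = 0.232). *Gfra2*, the coreceptor of neurturin, was at 8.16, 46.7 and 78.6 CPM against 13.4, 7.54 and 13.3 CPM (edgeR adjusted p = 0.189).

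Midkine and pleiotrophin, a pair of related heparin-binding factors grouped here with ALK, were both at lower fitted levels in *Nf1*/*Cdkn2a* dKO lines. *Alk* was near 0 throughout. It is the only receptor set beside them among the members, so its level does not show whether the lines can answer these factors. *Mdk*, encoding midkine (chr2:91929805-91932297), was at 10.6, 10.4 and 1.56 CPM against 0.273, 0.260 and 0.313 CPM. *Nf1*/*p53* dKO line 3 was well under the other lines of its genotype and still above every *Nf1*/*Cdkn2a* dKO line. The log2 fold change was -4.73 with a standard error of 0.79 (edgeR adjusted p = 0.0465). Without *Nf1*/*p53* dKO line 3 it was -5.20 (edgeR adjusted p = 0.0320), and without any other line the adjusted p was 0.0792 to 0.151. With at least 10 counts asked of every line *Mdk* remained testable, since *Nf1*/*Cdkn2a* dKO lines held 17, 18 and 20 counts. *Ptn*, encoding pleiotrophin, was at 59.7, 74.1 and 80.2 CPM against 2.57, 0.750 and 15 CPM. It did not overlap, but *Nf1*/*Cdkn2a* dKO lines spanned 19.98-fold, and the log2 fold change of -3.55 (standard error 1.02) had an adjusted p of 0.115 in edgeR and 0.000657 in DESeq2. *Alk* was not tested, with 0 to 15 counts per line.

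**Figure D3:**
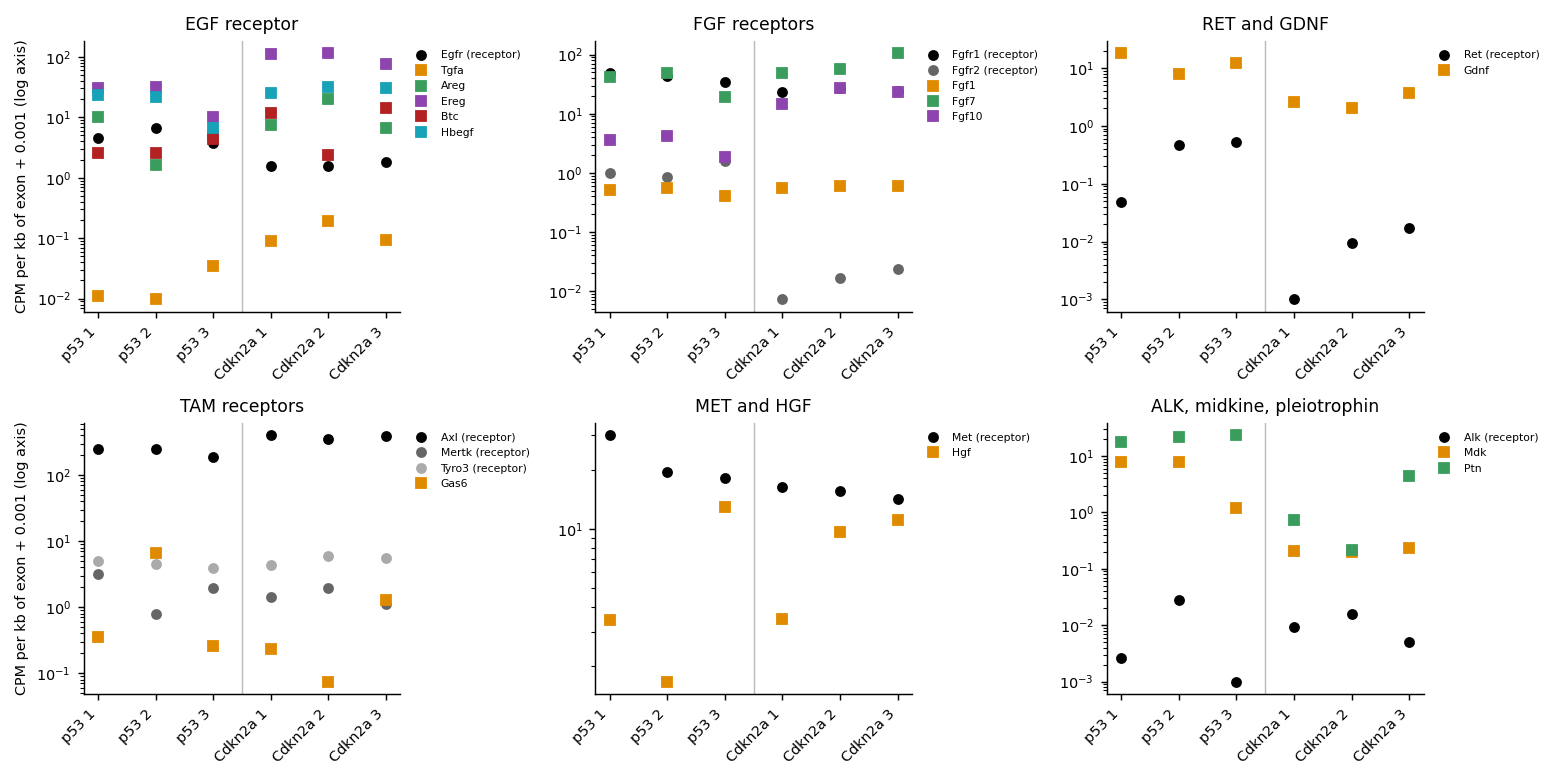
Receptors (circles) and ligands (squares) of 6 families in each line, in CPM per kilobase of exon plus 0.001 on log axes; the vertical line separates *Nf1*/*p53* dKO from *Nf1*/*Cdkn2a* dKO lines. *Egfr* and *Fgfr2* are lower on the right while *Fgf10* is higher, *Ret* and *Gdnf* are both lower on the right, and *Axl* stands above every ligand and receptor in its panel.

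AXL, a receptor of the TAM family that binds the vitamin K-dependent protein GAS6, was the most abundant receptor of the 25 in every line. Levels of different genes were compared as CPM per kilobase of exon. *Axl* was at 247, 246 and 186 CPM per kilobase in *Nf1*/*p53* dKO lines and 401, 352 and 386 CPM per kilobase in *Nf1*/*Cdkn2a* dKO lines. It made up 54.5 to 58.5% of the summed level of the 25 receptors in the former and 67.2 to 72.9% in the latter. In CPM it was at 1244, 1238 and 938 against 2017, 1769 and 1941, with no overlap (log2 fold change 0.74, standard error 0.17). The adjusted p was 0.0736 in edgeR and 0.00932 in DESeq2. *Tyro3*, a second TAM receptor, was at 24.5 to 36.7 CPM over the 6 lines and *Mertk*, the third, at 3.37 to 13.8 CPM, both with overlapping genotypes (edgeR adjusted p = 0.470 and 0.695). *Gas6*, the only ligand of this family among the members, was at 0.889, 17.1 and 0.650 CPM against 0.594, 0.188 and 3.25 CPM. It thus stood out in *Nf1*/*p53* dKO line 2, and varied 26.3-fold within that genotype and 17.4-fold within the other. *Pros1*, placed here with the other ligands of these receptor families, was above *Gas6* in each line. It was at 17.9 to 38.8 CPM over the 6 lines (edgeR adjusted p = 0.770).

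Next to *Axl*, the order of receptors per length differed between genotypes in its lower ranks. *Fgfr1* was next in each *Nf1*/*p53* dKO line, at 35.1 to 48.8 CPM per kilobase, and *Ddr2*, a receptor of fibrillar collagen, in each *Nf1*/*Cdkn2a* dKO line, at 32.4 to 42.9. With the longest coding transcript as the length in place of the union of exons, an alternative chosen after seeing the data, *Fgfr1* was next to *Axl* by mean in both genotypes, so the place of *Ddr2* rests on the length used. *Pdgfrb*, *Pdgfra*, *Met* and *Ddr1* came after these, at means of 12.7 to 23.0 CPM per kilobase, and their ranges over the 6 lines overlapped one another. *Egfr* ranked 9 of 25 in *Nf1*/*p53* dKO and 14 of 25 in *Nf1*/*Cdkn2a* dKO lines. *Fgfr2* ranked 16 and 18. Among the 28 ligands *Fgf7* ranked first in *Nf1*/*p53* dKO lines, at 36.1 ± 15.2 CPM per kilobase, and *Ereg* in *Nf1*/*Cdkn2a* dKO lines, at 101 ± 22.4 (SD, n = 3 each). *Ptn* ranked 4 of 28 in the former and 14 in the latter, *Gdnf* 7 and 13, and *Fgf10* 13 and 6. With the longest coding transcript as the length, *Egfr* ranked 10 and 14 and *Fgfr2* 13 and 18 among receptors. Among ligands *Ptn* then ranked 3 and 14, *Gdnf* 8 and 13, and *Fgf10* 14 and 5.

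**Figure D4:**
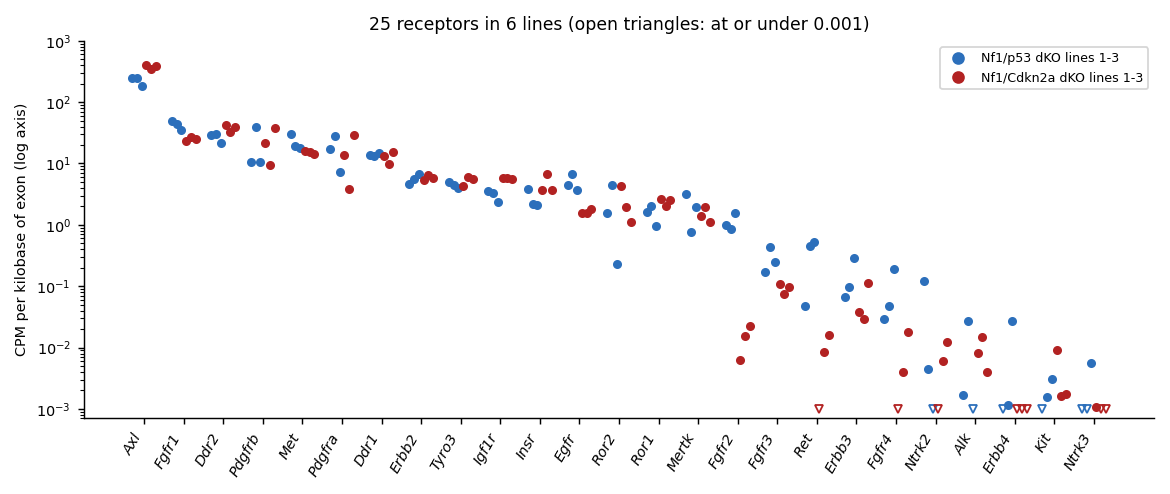
Level of the 25 receptors in each of the 6 lines, in CPM per kilobase of exon on a log axis, from the highest mean to the lowest; open triangles stand at the lower limit of the axis for values at or under 0.001. *Axl* is above every other receptor in each line, and *Fgfr2* and *Ret* show the widest gap between the blue *Nf1*/*p53* dKO and red *Nf1*/*Cdkn2a* dKO points among receptors tested.

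The insulin and IGF receptors, which drive growth and glucose uptake, had higher means in *Nf1*/*Cdkn2a* dKO, and neither was called. *Igf1r* was at 60.8, 56.0 and 39.2 CPM against 97.2, 97.1 and 92.3 CPM. Its *Nf1*/*Cdkn2a* dKO lines agreed within 1.05-fold and lay above every *Nf1*/*p53* dKO line, with a log2 fold change of 0.88, a standard error of 0.19 and an adjusted p of 0.0653 in edgeR (0.00726 in DESeq2). *Insr* overlapped, at 29.2 to 52.4 against 50.4 to 90.9 CPM (log2 fold change 0.79, edgeR adjusted p = 0.234). *Igf1*, which encodes a ligand of IGF1R, was at 1.20, 1.5 and 0.512 CPM against 2.41, 0.389 and 1.17 CPM.

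PDGF receptors, which mark fibroblasts and pericytes, varied between lines of a genotype more than between genotypes. *Pdgfrb* was at 58.8, 214 and 58.6 CPM against 117, 52.2 and 210 CPM, and *Pdgfra* spanned 39.0 to 295 CPM over the 6 lines. Their log2 fold changes, 0.19 and -0.14, had standard errors of 0.68 and 0.75 and edgeR adjusted p of 0.889 and 0.928. *Pdgfa*, the most abundant PDGF ligand per length, was at 46.8, 60.2 and 58.0 CPM against 89.3, 61.0 and 61.2 CPM. It did not overlap, though lines at 60.2 and 61.0 CPM all but met, and did overlap on raw total counts (log2 fold change 0.36, edgeR adjusted p = 0.345). *Pdgfb*, *Pdgfc* and *Pdgfd* overlapped, at 0.180 to 5.50, 30.4 to 67.9 and 0.851 to 14.6 CPM. *Pdgfd*, with a log2 fold change of -2.09, had an adjusted p of 0.205 in edgeR and 0.0456 in DESeq2.

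*Met*, the receptor of hepatocyte growth factor, was at 230, 149 and 138 CPM in *Nf1*/*p53* dKO lines against 125, 120 and 109 CPM in *Nf1*/*Cdkn2a* dKO lines. Its lines did not overlap, and the log2 fold change of -0.55 (standard error 0.22) had an edgeR adjusted p of 0.207. The ligand *Hgf* was at 24.7, 12 and 92.5 CPM against 24.9, 68.9 and 79.8 CPM, with *Nf1*/*p53* dKO line 3 highest of all, and its genotypes overlapped (edgeR adjusted p = 0.778). *Kitl*, encoding stem cell factor, was among the steadiest members, at 135, 108 and 132 CPM against 118, 126 and 141 CPM. Its log2 fold change of 0.04 had a standard error of 0.15, and its sign turned on raw total counts (-0.10) and with upper-quartile scaling (-0.01). The receptor *Kit* had 0 to 5 counts per line and was not tested.

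*Bdnf*, which encodes a ligand of the neurotrophin receptor TrkB, was at 29.5, 60.9 and 13.3 CPM against 86.4, 121 and 97.9 CPM. Its lines did not overlap, and the log2 fold change of 1.56 (standard error 0.52) had an adjusted p of 0.149 in edgeR and 0.0319 in DESeq2. *Ntrk2*, the gene of TrkB, had 183 counts in *Nf1*/*p53* dKO line 1 and 0 to 15 in the other lines. *Ntrk3* had 0 to 12 counts per line and its ligand *Ntf3* had 1 count in all, and these neurotrophin genes other than *Bdnf* were not tested. A count of 0 in a line allows up to 3 counts, which is 0.0409 CPM in *Nf1*/*p53* dKO and 0.0461 CPM in *Nf1*/*Cdkn2a* dKO lines, for counting error only.

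The collagen receptor *Ddr2* was at 275, 280 and 198 CPM against 398, 300 and 359 CPM, with no overlap under the scaling used, an overlap on raw total counts, and a log2 fold change of 0.49 (edgeR adjusted p = 0.204). *Ddr1*, its relative of epithelial tissue, was at 46.6 to 73.2 CPM over the 6 lines (log2 fold change -0.13, edgeR adjusted p = 0.720). The WNT5A receptor *Ror1* was at 9.50, 11.6 and 5.55 CPM against 15.2, 11.7 and 14.8 CPM, again with an overlap on raw total counts (log2 fold change 0.65, edgeR adjusted p = 0.282). *Ror2*, a second WNT5A receptor, was at 6.61, 18.6 and 0.982 CPM against 18.2, 8.28 and 4.77 CPM, which spans 18.9-fold within *Nf1*/*p53* dKO.

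Of all members, 28 were above 1 CPM in every line, 21 were above 10 CPM in every line, and 7 were at or under 1 CPM in every line. Of the 46 tested, 16 had a log2 fold change between -0.5 and 0.5. *Nf1*/*p53* dKO line 3 was the lowest of its genotype in 29 of 46 members (63.0%), beside 38.7% of all genes tested. It was the lowest of all 6 lines in 19 members (41.3%), beside 25.4% of all genes. That line also held the highest sum of skeletal muscle progenitor markers, 417 CPM, and 204 CPM of *Myod1*. Both called receptors were still above all *Nf1*/*Cdkn2a* dKO lines in it, and *Fgfr2* was highest there.

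**Figure D5:**
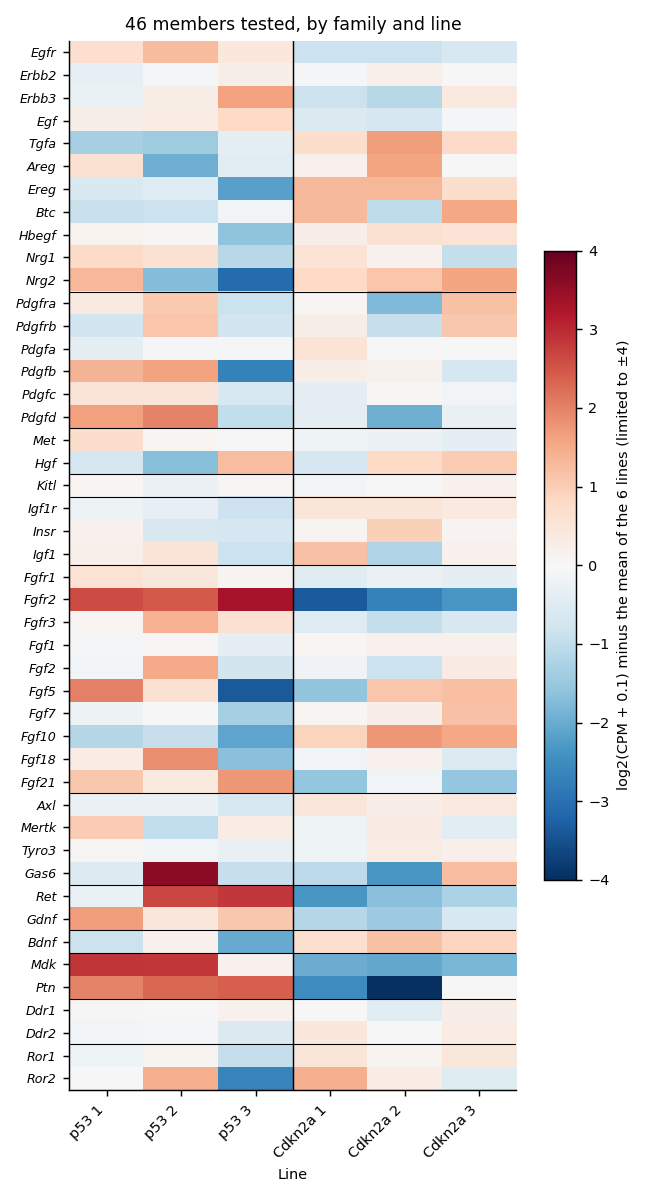
Each of the 46 tested members (rows, by family) in each line (columns), as log2(CPM + 0.1) minus the mean of the 6 lines, with colors limited to ±4. *Fgfr2* is red in each *Nf1*/*p53* dKO line and blue in each *Nf1*/*Cdkn2a* dKO line, and *Nf1*/*p53* dKO line 3 is the lowest of its genotype in 29 of the 46 rows.

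The further lists of the pathway held genes outside the 53, and those called in edgeR were all lower in *Nf1*/*Cdkn2a* dKO. Over all genes tested, 177 of the 274 called were lower and 97 higher. Extremes are given among genes with a mean of at least 1 CPM. Of 12 other receptor tyrosine kinases tested, 2 were called, beside 1.80% of all genes, and DESeq2 called 3 of 15, beside 11.8% of all genes. *Tek*, the angiopoietin receptor of endothelium, was at 0.412 to 1.08 CPM against 0.0642 to 0.0782 CPM (log2 fold change -3.23, edgeR adjusted p = 0.0465). In *Nf1*/*Cdkn2a* dKO lines *Tek* was little above 0.0461 CPM, the level of 3 counts, and its mean was under 1 CPM in both genotypes. The kinase *Lmtk3* was at 1.99 to 2.74 against 0.159 to 0.469 CPM (-3.02, edgeR adjusted p = 0.0470). *Musk*, the agrin receptor of muscle, had the lowest fitted value at -7.85. It was at 1.17, 2.18 and 11.8 CPM against 0.0160, 0.0433 and 0 CPM (edgeR adjusted p = 0.0502). *Musk* was highest in the line with most *Myod1*. Its *Nf1*/*Cdkn2a* dKO levels were all under 0.0461 CPM, so that fitted value is no bound on the change. The VEGF receptor *Flt1* had the highest, at 1.51 (edgeR adjusted p = 0.336).

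Of 23 other ligands tested, 3 were called, beside 1.80% of all genes, and DESeq2 called 6 of 26, beside 11.8% of all genes. The 3 were *Vegfc*, *Vegfa* and *Angpt1*, which encode factors for lymphatic and blood vessels. *Vegfc* was at 18.2, 22.9 and 23.9 CPM against 2.87, 4.47 and 3.35 CPM (log2 fold change -2.60, standard error 0.26, edgeR adjusted p = 0.0198). *Vegfa* was at 172, 157 and 203 CPM against 70.5, 70.5 and 81.2 CPM (-1.26, standard error 0.15, edgeR adjusted p = 0.0272). *Angpt1*, a ligand of the receptor that *Tek* encodes, was at 42.1, 32.3 and 57.2 CPM against 6.51, 7.46 and 12.6 CPM (-2.31, standard error 0.34, edgeR adjusted p = 0.0388). Among ligands with a mean of at least 1 CPM, the lowest fitted value was *Fgf11* at -3.89 (edgeR adjusted p = 0.110) and the highest *Pgf* at 2.43 (edgeR adjusted p = 0.300). Below that level *Fam150a*, which encodes a ligand of ALK, was at 3.19 (0.0283 to 0.0773 against 0.389 to 0.860 CPM, edgeR adjusted p = 0.0544).

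Among 23 coreceptors, sheddases and ligand-binding proteins tested, 2 were called, beside 1.80% of all genes. DESeq2 called 7 of 24, beside 11.8% of all genes. *Sorcs2*, a neurotrophin coreceptor, was at 110, 59.6 and 146 CPM against 17.9, 17.9 and 11.2 CPM (log2 fold change -2.75, edgeR adjusted p = 0.0361). *Igfbp2*, which binds IGFs, was at 62.7, 120 and 13.4 CPM against 0, 0.0288 and 0.454 CPM (-8.66, edgeR adjusted p = 0.0482). *Igfbp4*, another IGF-binding protein, had the highest fitted value at 1.90 (edgeR adjusted p = 0.281). Of 25 adaptors and proximal signaling genes, 0 were called in edgeR and 1 in DESeq2, beside 1.80% and 11.8% of all genes. In edgeR 4 (16%) had an unadjusted p under 0.05, beside 22.4% of all genes. Fitted values were highest for *Shc4* at 1.75 and lowest for *Pik3r3* at -0.84. Of 19 inhibitors of receptor tyrosine kinases, 0 were called in edgeR and 2 of 20 in DESeq2, beside the same 1.80% and 11.8%. In edgeR 6 (31.6%, beside the same 22.4%) had an unadjusted p under 0.05. Fitted values were highest for *Grb14* at 1.51 and lowest for *Socs2* at -1.77. Below a mean of 1 CPM, *Spint2*, which encodes a protease inhibitor, was at 2.35 (0.0830 to 0.325 against 0.914 to 1.53 CPM, edgeR adjusted p = 0.0904).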

How the data were processed

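RNA-seq of 18 libraries, 3 cultures from each of 6 mouse MPNST cell lines, was analyzed. The authors deposited raw counts, unnormalized whole reads for each gene in each library, for 35275 genes (34490 with identifiers that GENCODE M21, GRCm38, holds). The submitters' processing notes name CASAVA, STAR 2.5, DESeq2 1.14.1 and the builds GRCm38 and mm10. The counting tool, its strand setting and its annotation are not given in the sources used here.

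The 3 cultures of each line were pooled by adding their counts. Genes were kept by filterByExpr (minimum count 10, minimum total count 15), scaled by TMM (factors 0.941 to 1.06) and tested in edgeR 4.0.16 by the quasi-likelihood F test over all genes, p-values being adjusted after Benjamini and Hochberg. R was 4.3.3, DESeq2 1.42.0, limma 3.58.1 and Python 3.11.15. Called means an adjusted p under 0.05. CPM per kilobase used the union of a gene's annotated exons. Libraries held 19560535 to 28312207 counts, those of 1 line differed beyond sampling noise (chi-square per degree of freedom 3.57 to 29.2), and no pair was identical. An exact two-sided permutation test of 3 lines against 3 cannot go below p = 0.1, so none was used.

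The members, lists and tests were chosen with earlier results of these data known. Per-line values are given for members called, not overlapping between genotypes, or highest of their family per length. In each further list the called genes and the extremes with a mean of at least 1 CPM are named. *Gfra1*, *Gfra2*, *Ngfr*, *Gap43*, *Pros1*, *Fam150a* and *Spint2* were named after their values were seen. So were the single epithelial markers. The alternatives were other scalings and filters, DESeq2, cultures as samples, replicate numbers as blocks, and each line left out. The steps were tested on simulated data. Promoter windows come from RefSeq GRCm38.p6.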

Additional observations from a re-analysis of the deposited data

Results flagged for a closer look

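In 92 groups of 9 cultures (46 members in each genotype), 4 had a lowest or highest culture set apart from the rest by Dixon's criterion, and chance flags about 1 in 20 groups of independent values. The 9 cultures are 3 from each of 3 lines and so are not independent, and that rate is only a rough guide here. *Egf* in culture 1 of *Nf1*/*Cdkn2a* dKO line 3 was at 1.13 CPM, with the next culture of the genotype at 0.639 CPM. *Fgf21* in culture 1 of *Nf1*/*Cdkn2a* dKO line 2 was at 0.348 CPM, with the next at 0.129 CPM. *Ddr1* in culture 2 of *Nf1*/*p53* dKO line 3 was at 75.7 CPM, with the next at 68.6 CPM. *Ddr2* in culture 1 of *Nf1*/*Cdkn2a* dKO line 1 was at 479.8 CPM, with the next at 375 CPM. None of these 4 members was called.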

How the results depend on the processing

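The count of 5 members called was 5 with DESeq2's size factors, upper-quartile scaling or no filter, beside 1.85, 2.1 and 1.72% of all genes. It was 4 with at least 10 counts in every line (*Fgfr2* then not tested), beside 1.73% of all genes. On raw total counts, an alternative chosen after seeing the data, it was 6, beside 2.78% of all genes. DESeq2 on the 6 lines called 15 of 49 members, beside 11.8% of all genes. Treating the 18 cultures as separate samples gave 29 of 51 with DESeq2 and 22 of 42 with edgeR, where 38.9% and 46.5% of all genes were called. With lines as random effects, limma-voom called 14 of 42 members, also with the culture number as a replicate block, beside 16.6% and 15.3% of all genes. Leaving out a line gave 0 to 4 calls (edgeR). It was 0 without any 1 of the *Nf1*/*Cdkn2a* dKO lines, where 16 to 17 members and 2668 to 2802 of all genes had an unadjusted p under 0.05. It was 1 (*Fgfr2*) without *Nf1*/*p53* dKO line 1 or 2, and 4 without line 3. Over all genes, 0, 0.0127 and 0.145% were called without *Nf1*/*Cdkn2a* dKO lines 1, 2 and 3. Without *Nf1*/*p53* dKO lines 1, 2 and 3 the shares were 1.11, 0.173 and 0.681%. With 1 line fewer, the spread is estimated from 5 lines. The members whose lines do not overlap numbered 17 to 23 over the scalings (37.0 to 50.0%, beside 31.2 to 32.4% of all genes) and 23 to 29 with a line left out (50.0 to 63.0%, beside 38.5 to 43.1% of all genes).

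The line numbers were not taken as pairs, since each line comes from a separate tumor. The same-numbered lines' deviations correlated at -0.0988, -0.133 and -0.0848, and no line correlated best with its own number. Such small correlations cannot show whether same-numbered lines were handled together. With the line number as a replicate block, edgeR called 0 members and 0 genes, with 16 members and 2740 genes at an unadjusted p under 0.05.

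Signs turned in members that were not called. *Erbb2* was -0.061 and *Kitl* -0.10 on raw total counts, *Kitl* -0.0074 with upper-quartile scaling, *Igf1* -0.15 with the culture block, and *Fgf5* 0.84 in limma-voom, 0.64 with the culture block and 0.58 with the line block. With a line left out, log2 fold changes ran from -0.38 to 1.12 for *Pdgfrb*, -0.65 to 0.074 for *Nrg1*, -0.041 to 0.11 for *Kitl*, -0.98 to 0.38 for *Pdgfra*, -0.83 to 1.04 for *Fgf5*, -0.45 to 0.75 for *Igf1*, -0.41 to 1.47 for *Ror2*, -0.052 to 0.23 for *Erbb2*, -0.0028 to 1.66 for *Hgf*, -1.13 to 0.29 for *Fgf2*, -1.66 to 0.31 for *Fgf18*, -0.76 to 0.15 for *Mertk*, -3.99 to 0.81 for *Gas6* and -0.28 to 0.036 for *Ddr1*. For members whose sign held, they ran from -8.27 to -2.63 for *Fgf21*, 0.71 to 3.58 for *Nrg2*, 0.37 to 1.81 for *Areg*, -2.18 to -0.45 for *Erbb3* and -1.57 to -0.48 for *Pdgfb*, none of them called. The cause of these shifts was not tested. With at most 15 counts of *Fgfr2* and 7 of *Ret* per *Nf1*/*Cdkn2a* dKO line, depth limits how far those folds can be read.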

Other observations

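*Grb10*, which encodes an adaptor that inhibits insulin and IGF receptors, was named after its values were seen. It was at 298, 275 and 256 CPM in *Nf1*/*p53* dKO lines and at 286, 0.649 and 176 CPM in *Nf1*/*Cdkn2a* dKO lines 1, 2 and 3, so that line 2 stood apart from the other 5. *Insr* was highest of the 6 lines in that same line, at 90.9 CPM, while *Igf1r* was at 97.1 CPM there, between the other lines of its genotype at 97.2 and 92.3 CPM.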
